A study of Mus musculus with 9 samples.

Results

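Limb tendon progenitors of mouse embryos were compared between the embryonic days E14.5 and E12.5 across all genes of a whole-genome array. The comparison took the 3 E14.5 arrays and the 3 E12.5 arrays, 6 of the 9 arrays of the series, and the other 3 (E11.5) entered the fit as a stage of their own. Every array held RNA of GFP-positive forelimb cells from Scx-GFP embryos of natural matings. In these embryos a green fluorescent reporter follows Scx, the gene of the tendon transcription factor scleraxis. Forelimbs were dissociated with trypsin and sorted on either of 2 cell sorters, and amplified, biotin-labelled RNA was hybridised to Affymetrix Mouse Genome 430 2.0 arrays. No treatment was applied, and age was the only labelled difference between the groups. The sort kept whichever cells carried the reporter at each stage, which can include cells that had recently stopped making Scx. The labels give neither the strain nor the number of pooled embryos, which sorter handled which sample, or whether arrays of one stage came from separate litters. The p-values therefore measure the spread between these samples, which may be partly technical.

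Scleraxis marks tendon progenitors from the limb bud onwards. Progenitors first gather between the muscle masses and the cartilage elements, then align into tendon primordia, and then lay down a matrix of type I collagen fibrils. Fibril diameter and spacing depend on fibril-associated collagens and small leucine-rich proteoglycans, and stable fibrils need hydroxylation, chaperoning, propeptide removal and crosslinking of the collagen chains. Scleraxis, Mohawk (Mkx) and Egr1 are transcription factors known to act on tendon collagen genes. Scx-expressing cells next to cartilage also include progenitors with Sox9 that form the attachment of tendon to bone.

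The deposited signals are Affymetrix MAS5 values on a linear scale, in which the trimmed mean of each array equals 500. Values are given below in the order of arrays A, B and C of each stage. Changes are log2 differences of signals raised to a floor of 22.7, which is the 25th percentile of all signals, so changes from or to the floor are understated. Each change is given ± its standard error with the p adjusted over the 11575 tested genes by limma. The array median was 69.5 to 106 at E12.5 and 81.5 to 118 at E14.5, and between 0.121% and 1.32% of the tested genes of an array, E11.5 included, were at the floor. The first principal component of these 6 arrays (64.4% of the variance) separated the E12.5 arrays (-41.9 to -32.8) from the E14.5 arrays (28.7 to 45.8). Actb, the cytoplasmic actin gene often used as a reference, was 26616, 22900.0 and 28272 at E12.5 and 25048, 23184 and 28629 at E14.5 (-0.02 ± 0.16).

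One array stood apart within its stage. In E14.5 A, all 20 tested cartilage markers were higher than in E14.5 B and C, and 18 of them were more than 2 times higher than in either. Over all tested genes that share was 199 of 11575 (1.72%), and among the genes called higher at E14.5 it was 42 of 1463 (2.87%). Acan, which encodes the cartilage proteoglycan aggrecan, read 299, 304 and 392 at E12.5 and 5409, 554 and 185 at E14.5. Col2a1, the gene of the main cartilage collagen, read 8967, 7439.9 and 10564 at E12.5 and 21311, 5150.0 and 3538 at E14.5. Both genes were far above E12.5 in E14.5 A and below every E12.5 array in E14.5 C, and neither was called (adjusted p = 0.35 and 0.74). Without E14.5 A the change of Acan was -0.04, and Col2a1 was called lower (-1.06, adjusted p = 0.012). Counts of 4 or more called genes below that change by more than 1.5 times without E14.5 A, or without the letter A arrays of every stage, are given with those values, and most smaller counts too. The single falls in the prostaglandin and nuclear receptor, skeletal muscle and endothelial lists and the single kinesin rise were lost in both cases, and the single fall of the hypoxia list and the single splicing rise without the letter A arrays. In bulk RNA, a larger share of one cell type and more RNA per cell of that type cannot be told apart.

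Between E12.5 and E14.5, 1463 genes were higher (12.6% of those tested) and 1079 were lower (9.32%) at an adjusted p under 0.05. The rises were larger than the falls. The median log2 change was 1.04 among the called rises and -0.70 among the called falls; 763 genes rose and 219 fell by at least 1 log2 unit, and 59 rose and 2 fell by at least 3. In every called rise the 3 E14.5 arrays lay above the 3 E12.5 arrays, and in 1077 of the 1079 called falls they lay below. Non-overlapping arrays alone were found for 4918 tested genes (42.5%). Of the genes that rose, 177 were below the array-wide median signal of 90.6 in all E12.5 arrays and above it in all E14.5 arrays. Of those that fell, 38 went the other way. The split between rises and falls depended on scaling: rises were 57.6% of the calls as deposited, 48.7% after quantile normalization and 33.5% after median centring. Median centring moved the median change of all tested genes from -0.05 to -0.21. No gene called in one direction was called in the opposite one under any alternative. Where a group below is said to have no member called in a direction, 0 to 2 of its tested members had an unadjusted p under 0.05 in that direction, and 3 in the case of sterol genes that fell. Without the letter A arrays, which leaves 2 arrays a stage, 785 genes were called higher and 299 lower, and 554, 677 and 646 were called lower with E12.5 A, B or C left out, and 651 without E14.5 C. The largest called fall was that of Calb2, which encodes the calcium-binding protein calretinin, at 927, 354 and 358 at E12.5 and 99.6, 16.2 and 10.6 at E14.5 (-3.72 ± 0.64, and -2.39 with the floor at the median signal).

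**Figure D1:**
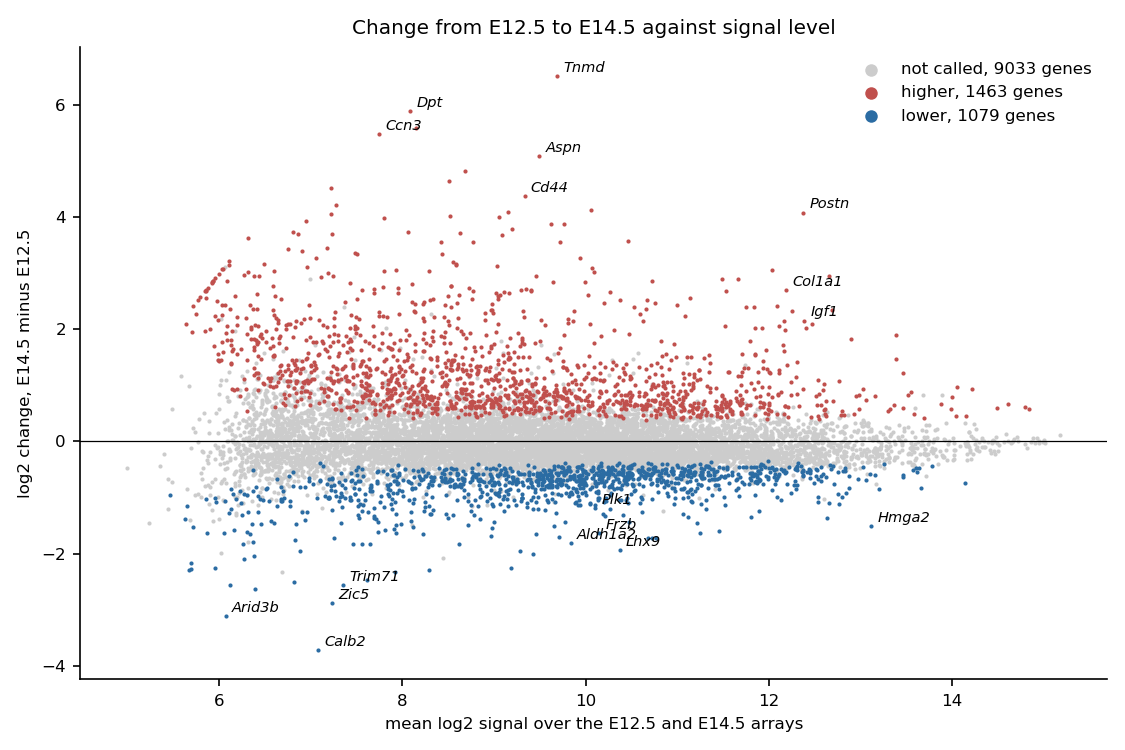
Change between the stages against level for the 11575 tested genes. The horizontal axis is the mean log2 signal of the 6 arrays, the vertical axis the log2 difference E14.5 minus E12.5; grey points are the 9033 genes not called, coloured points the 1463 called higher and 1079 called lower. The rises reach 6.52 (Tnmd) and spread further from 0 than the falls, of which the largest is -3.72 (Calb2).

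Of the tendon transcription factors, Mkx alone was called. Of 8 listed, 7 were tested, 1 rose and none fell, or 1 with the array letter as a block (median 0.19; all tested genes -0.05). Mkx read 676, 896 and 860.5 at E12.5 and 1418, 1738 and 2039 at E14.5 and rose by 1.09 ± 0.19 (adjusted p = 0.0043). Scx, on whose reporter the cells were sorted, read 17214, 16654 and 16100.0 at E12.5 and 9811, 8692 and 14952 at E14.5. All 3 E14.5 arrays were below all 3 E12.5 arrays, but the change of -0.62 ± 0.22 missed the threshold (adjusted p = 0.075). It was called lower without E14.5 C (-0.85), after median centring (-0.78) and in 3 other alternatives. Egr1, also an immediate early gene, read 19279, 12428 and 6203 at E12.5 and 24733, 20231 and 16610.0 at E14.5, with E12.5 A above E14.5 C (adjusted p = 0.51). Sox9 read 3174, 2558 and 2802 at E12.5 and 2435, 1211 and 582 at E14.5 and was not called (-1.24 ± 0.41, adjusted p = 0.056). Its E14.5 arrays were all below the E12.5 arrays, highest in E14.5 A, and with the array letter as a block it was called lower (adjusted p = 0.035). It was also called lower without E14.5 A (-1.76), without the letter A arrays (-1.67), after median centring (-1.41) and in 5 other alternatives, and was -0.72 without E14.5 C.

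Collagen genes rose together. All 12 tested genes of the tendon collagen list (12 listed) were called higher, with a median change of 2.25, against 12.6% of all tested genes. Col1a1, which encodes the α1 chain of type I collagen, read 1646, 1979.6 and 1891 at E12.5 and 14420.0, 9908 and 11620.0 at E14.5 and rose by 2.69 ± 0.18 (adjusted p = 2.8e-05). Col14a1, a fibril-associated collagen of tendon and other dense connective tissue, read 339, 459.6 and 436 at E12.5 and 5919, 4279 and 4498 at E14.5 and rose by 3.57 ± 0.26. All 3 chains of collagen VI, which forms microfilaments around tendon cells, rose, with Col6a1 at 1012, 1284 and 1226 at E12.5 and 9365, 6401 and 7118 at E14.5 (2.69 ± 0.22), Col6a3 at 2.35 ± 0.23 and Col6a2 at 2.09 ± 0.15. Col12a1, the other fibril-associated collagen of this list, read 1184, 2161 and 1567 at E12.5 and 7949.9, 8493 and 8701 at E14.5 (2.40 ± 0.27). Col5a1 and Col5a2, whose chains make the collagen V that starts type I fibrils, rose by 1.82 ± 0.20 and 1.47 ± 0.15.

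Col1a2 and Col3a1 changed least of the 12. Col1a2 read 18164, 18719 and 22860.0 at E12.5 and 29867, 27963 and 37616 at E14.5 (0.67 ± 0.17, adjusted p = 0.022) and Col3a1 read 22041, 22506 and 27862 at E12.5 and 34651, 31786 and 41896 at E14.5 (0.58 ± 0.18, adjusted p = 0.043). Both calls were lost after median centring, without the letter A arrays, and without any 1 of E12.5 A, E12.5 B or E14.5 C; the changes of Col1a2 without these arrays were 0.61, 0.63 and 0.54, and those of Col3a1 0.52, 0.53 and 0.47. That of Col3a1 was also lost without E11.5 C (0.58) or E14.5 A (0.60) and with no filter on low signals. With the second probe set of the gene Col1a2 rose by 1.30, Col3a1 by 1.30 and Col12a1 by 2.31. Over the whole collagen family, 21 of 34 tested chain genes rose and none fell (median 1.16). Of 15 tested basement membrane collagens, laminins and partners 10 rose and none fell (median 0.80), led by the laminin gene Lama4 at 703, 798 and 706 at E12.5 and 3300.1, 2261 and 2825 at E14.5 (1.91 ± 0.18). Lamb2 (1.14 ± 0.20) and Lamb1 (0.97 ± 0.14) rose too, and 6 of the 7 tested laminin chain genes were called. The basement membrane count was 7 after median centring, 6 without the letter A arrays and 6 without E12.5 A.

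**Figure D2:**
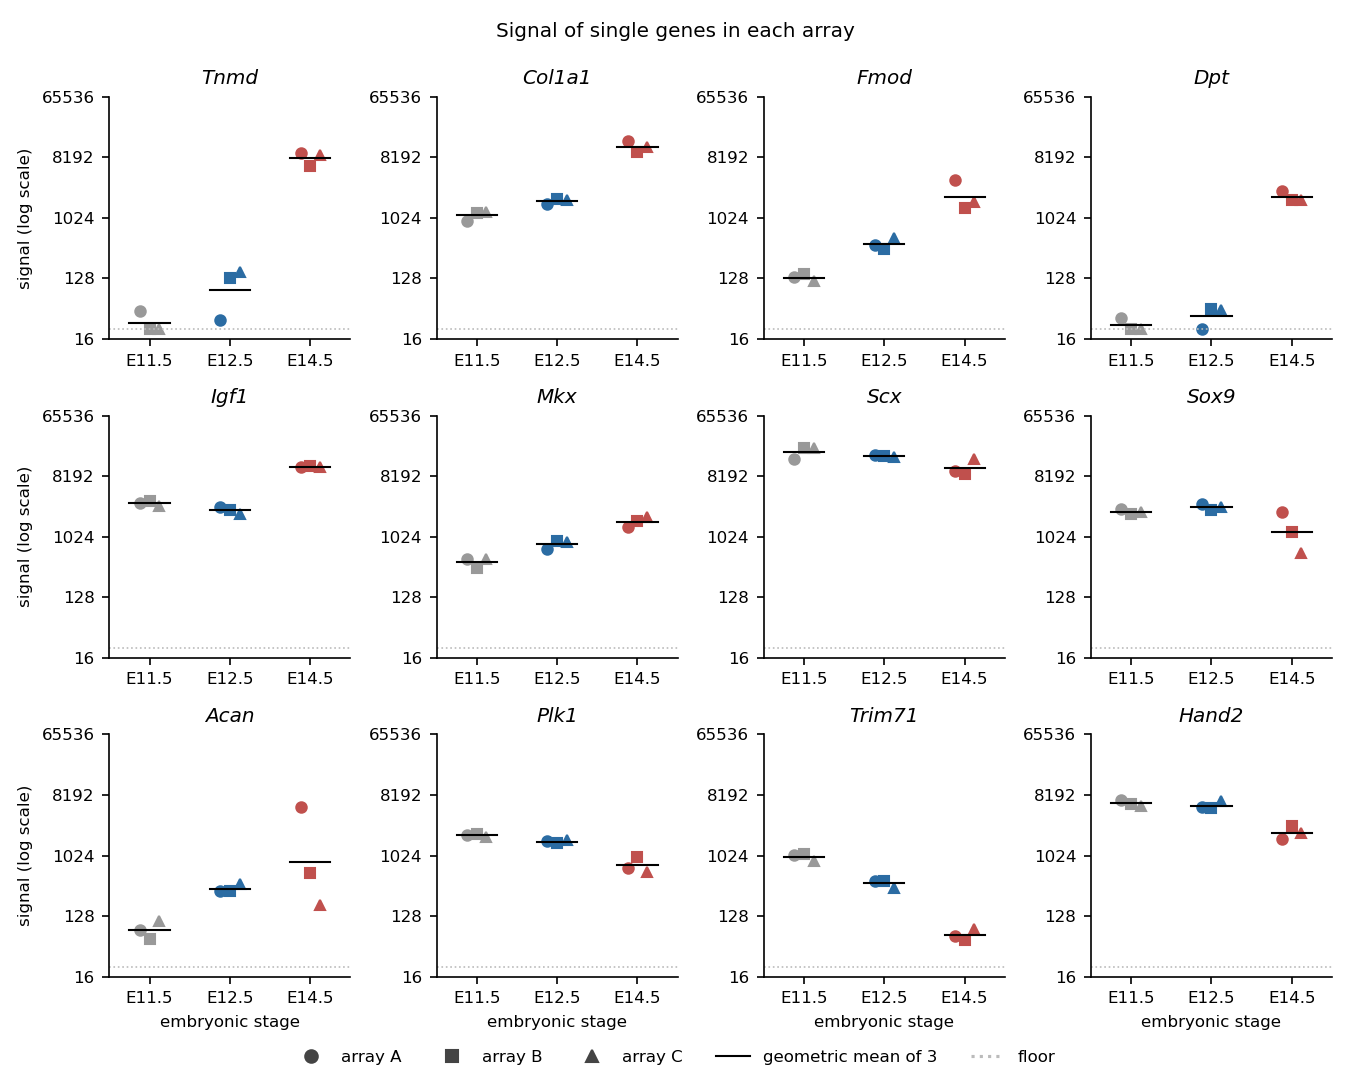
Signals of 12 genes on each array. Each panel has a log axis of the deposited signal, 1 point per array, circles for A, squares for B and triangles for C, bars at the geometric mean of the floored signals of a stage and a dotted line at the floor of 22.7. Tnmd and Dpt leave the floor region by E14.5, Scx is slightly lower and not called, Acan is spread over its 3 E14.5 arrays with A highest, and Plk1, Trim71 and Hand2 are lower at E14.5.

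Small leucine-rich proteoglycans and matricellular proteins had some of the largest changes. Of 9 tested small leucine-rich proteoglycan genes (13 listed) 8 rose and none fell (median 2.33, the largest of the 52 lists). Aspn, the asporin gene, read 71.6, 205 and 129.6 at E12.5 and 5037, 4102 and 3585 at E14.5 and rose by 5.08 ± 0.32 (adjusted p = 2.0e-05). Bgn, the biglycan gene, read 1153, 1001 and 1017 at E12.5 and 12672, 6229 and 6055 at E14.5 and rose by 2.89 ± 0.31. Ogn, the osteoglycin gene, read 1183, 1873 and 1362 at E12.5 and 11190.0, 12264 and 12842 at E14.5 (3.06 ± 0.28). Fmod, whose product fibromodulin binds type I collagen fibrils, read 410.2, 349.9 and 511 at E12.5 and 3702, 1430.0 and 1758 at E14.5 and rose by 2.33 ± 0.31 (adjusted p = 0.0011). Kera and Lum, the keratocan and lumican genes, rose less, by 2.15 ± 0.31 and 1.22 ± 0.24, from E12.5 readings of 2074, 2078 and 2406 and 6044, 7149.7 and 9372. Dcn, the decorin gene, rose by 2.95 ± 0.25, from 1784, 2467 and 2838 to 16021, 15880.0 and 22692, a call lost with its second probe set.

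Of 24 tested matricellular and adhesive glycoprotein genes (26 listed), 18 rose and none fell (median 2.09). Only the stages where they were high took 4 of the 24 past the filter on low signals. Tnmd, which encodes tenomodulin, a membrane glycoprotein of mature tendon cells, read 30.9, 129 and 163 at E12.5 and 9398, 6005 and 8797 at E14.5. It was near the floor in E12.5 A and far above every E12.5 array in each E14.5 array, and had the largest change of all called genes (6.52 ± 0.55, adjusted p = 8.5e-05). Ccn3, a secreted matricellular protein gene, read 24.1, 45.9 and 29.8 at E12.5 and 2208, 1160.1 and 1140.4 at E14.5 (5.48 ± 0.37), and Abi3bp, a collagen-binding matrix protein gene, read 61.5, 90.4 and 69.3 at E12.5 and 1771, 1646 and 2087 at E14.5 (4.65 ± 0.27). Thbs4, the gene of the tendon and muscle attachment protein thrombospondin 4, read 114, 138 and 252 at E12.5 and 2227, 2223 and 2118 at E14.5 and rose by 3.79 ± 0.31. Postn, the periostin gene, went from 688, 1716 and 1831 to 17630.0, 22270.0 and 26591 (4.08 ± 0.56). Comp, which encodes cartilage oligomeric matrix protein, a component of both tendon and cartilage, read 96.9, 148 and 208 at E12.5 and 4429.8, 376 and 205 at E14.5, highest by far in E14.5 A, and was not called (2.28 ± 0.91, adjusted p = 0.1). Without E14.5 A its change was 0.95, and without E14.5 C it was 3.16 and called.

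Dpt encodes dermatopontin, which binds decorin and collagen. It read 21.3, 45.1 and 42.7 at E12.5 and 2582, 1872 and 1893 at E14.5, so that it was near the floor in the E12.5 arrays and far above it in all E14.5 arrays (5.89 ± 0.28, adjusted p = 5.0e-06). Its promoter window is shown because no gene's change differed more between the 2 intervals of the series, as described further on. The window, from RefSeq on GRCm38.p6, lies on the plus strand at chr1:164796413-164796712, and the capitals mark TATAAA and the E-box letters CAGCTG and CAGATG, on either strand. E-boxes are the sites of basic helix-loop-helix factors, the protein class of scleraxis.
Dpt: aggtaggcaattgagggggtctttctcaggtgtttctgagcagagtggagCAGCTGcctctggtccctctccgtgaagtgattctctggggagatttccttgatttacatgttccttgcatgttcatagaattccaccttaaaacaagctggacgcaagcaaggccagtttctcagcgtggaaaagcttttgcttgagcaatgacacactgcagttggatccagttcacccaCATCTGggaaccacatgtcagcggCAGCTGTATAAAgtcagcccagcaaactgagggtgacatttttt
This window held 1 match to TATAAA, 2 to CAGCTG and 1 to CAGATG, read as CATCTG on the printed strand. Among tested genes with 1 window, TATAAA was in 9.51% of the 873 that rose, 6.26% of the 703 that fell and 6.72% of all 7429. CAGCTG was in 20.2%, 11.8% and 14.6%, and CAGATG in 13.1%, 8.39% and 10.3% of the same sets. Over all 22862 genes with 1 window the shares were 14.8%, 16.1% and 17.4%. These are matches of letters and say nothing of a factor's binding.

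Genes that process collagen were higher with it. Of 24 tested (30 listed) 17 rose and none fell (median 0.74). Lox, which encodes the crosslinking enzyme lysyl oxidase, read 1138, 1269.6 and 1174 at E12.5 and 10686, 7492 and 8575 at E14.5 and rose by 2.89 ± 0.21 (adjusted p = 4.0e-05). P4ha3, a prolyl 4-hydroxylase subunit gene, read 202, 293 and 252 at E12.5 and 914, 704 and 768 at E14.5 (1.68 ± 0.18). P3h1 and Crtap, whose products form the prolyl 3-hydroxylation complex with cyclophilin B, rose by 1.32 ± 0.19 and 1.30 ± 0.17. Pcolce, an enhancer of procollagen C-propeptide removal, rose by 0.92 ± 0.16, from 4756, 4450.1 and 4283 to 10867, 7739.9 and 7369. The collagen chaperone gene Serpinh1, high at both stages (12329, 14053 and 13627 at E12.5 and 18889, 19795 and 20874 at E14.5), rose by 0.57 ± 0.12, a call lost without the letter A arrays. The group's count was 9 without those arrays.

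Of 16 tested elastic fibre and microfibril genes (18 listed), 14 rose and none fell (median 0.98), and 9 without the letter A arrays. Mfap5, a microfibril gene, read 39.3, 56.8 and 79.9 at E12.5 and 814, 797 and 1066 at E14.5 and rose by 3.97 ± 0.32 (adjusted p = 7.1e-05). Eln, the elastin gene, read 193, 197 and 278 at E12.5 and 1899, 1276 and 1119 at E14.5 (2.67 ± 0.27). Ltbp3 and Ltbp2, latent TGF-beta binding protein genes, rose by 1.61 ± 0.17 and 3.70 ± 0.48, the second by 2.21 with the floor at the median signal. Mgp, the matrix Gla protein gene, read 938, 863 and 848 at E12.5 and 10210.0, 3363 and 3133 at E14.5 and was highest in E14.5 A (2.43 ± 0.41). Of 22 tested metalloproteases and inhibitors, 14 rose and none fell (median 0.94), and 9 without the letter A arrays or without E12.5 A. Adam12, a membrane metalloprotease gene, read 195, 220.4 and 281 at E12.5 and 1052, 1032 and 1326 at E14.5 (2.30 ± 0.16), and the inhibitor gene Timp2 rose by 1.27 ± 0.15, from 2938, 2922 and 2722 to 8318, 5747 and 6797. Adamts5, a proteoglycan-cleaving protease gene, rose by 1.11 ± 0.14.

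Glycosaminoglycan enzymes moved less, with 7 of 33 tested higher (4 after median centring), none lower and a median of 0.36. Gpc4, a cell-surface heparan sulfate proteoglycan gene, read 1447, 1526 and 1685 at E12.5 and 4819.5, 3092 and 3514 at E14.5 (1.27 ± 0.17). Dsel, a dermatan sulfate epimerase-like gene, rose by 0.79 ± 0.14.

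In the secretory pathway, 17 of 42 tested genes rose and none fell (median 0.42). Creb3l1, an endoplasmic reticulum transcription factor needed for collagen production in bone, read 60.7, 124 and 128 at E12.5 and 595, 549 and 731 at E14.5 and rose by 2.65 ± 0.36 (adjusted p = 0.0011). Kdelr3, a retrieval receptor for endoplasmic reticulum proteins, read 659.8, 805 and 753 at E12.5 and 4863, 3732 and 3751 at E14.5 and rose by 2.47 ± 0.17. The vesicle coat gene Sec24d read 975, 1062 and 1115 at E12.5 and 2966, 2781 and 2376 at E14.5 (1.36 ± 0.14). General chaperones of the compartment were not called, among them Hspa5 (0.17 ± 0.12, adjusted p = 0.35), Hsp90b1 (0.08 ± 0.14) and Calr (0.03 ± 0.12). The count was 10 after median centring, 12 without E14.5 A, 10 without E12.5 B and 6 without the letter A arrays.

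**Figure D3:**
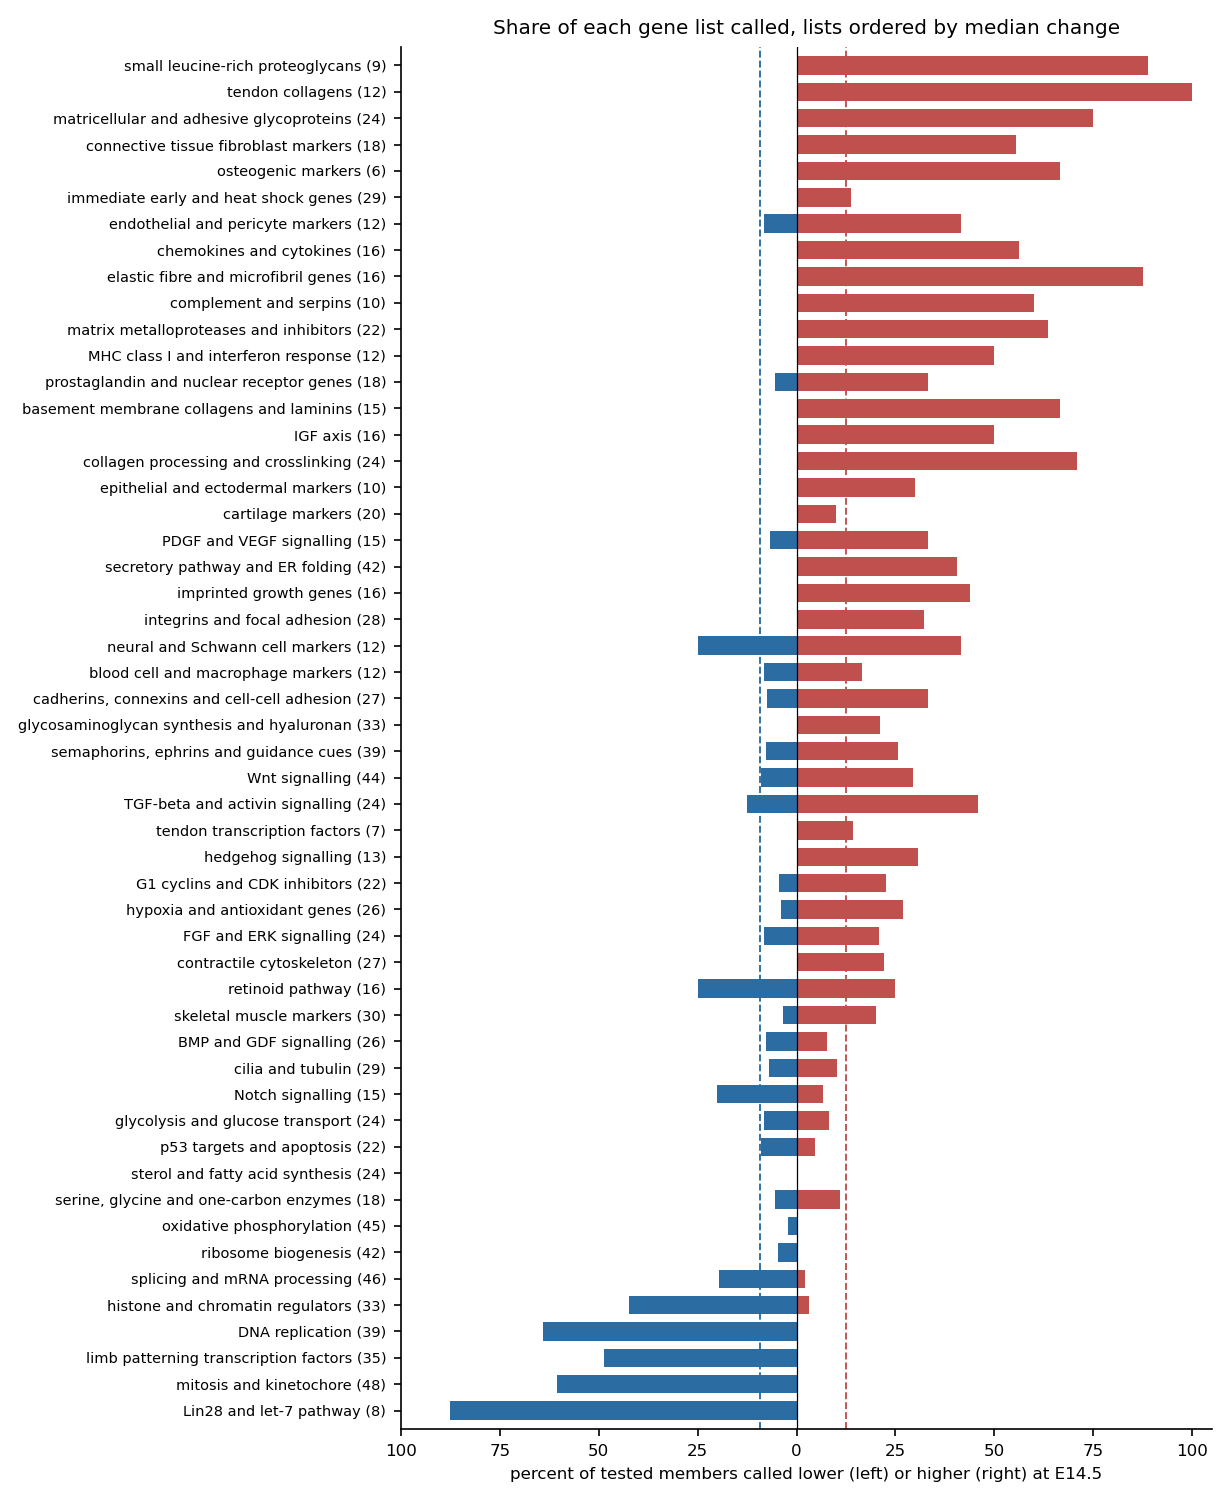
Percent of the tested members of each gene list called higher (to the right) and lower (to the left) at E14.5, with the number tested in parentheses, ordered by the list's median change. The dashed lines are the shares of all 11575 tested genes, 12.6% higher and 9.32% lower. The small leucine-rich proteoglycan, tendon collagen and matricellular lists lie at the top. The Lin28 and let-7, mitosis, limb patterning and DNA replication lists lie at the bottom.

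Growth factor pathways are read beside the shares of all tested genes, 12.6% higher and 9.32% lower. In the insulin-like growth factor axis 8 of 16 tested genes rose and none fell (median 0.80). Igf1, the ligand, read 2884, 2549 and 2221 at E12.5 and 11045, 11700.0 and 11165 at E14.5, about the same in all 3 E14.5 arrays (2.16 ± 0.13, adjusted p = 2.0e-05). Its change in the first interval, E12.5 minus E11.5, was -0.36 ± 0.13, and the difference between the intervals, second minus first, was 2.51 ± 0.23 (adjusted p = 0.002). Htra1, a secreted protease gene, read 161, 342 and 299 at E12.5 and 6201, 3393 and 4207 at E14.5 and rose by 4.13 ± 0.34. The binding protein gene Igfbp3 rose by 1.24 ± 0.17, and Pappa2, whose product cleaves such binding proteins, by 1.85 ± 0.27. Igf2 (0.13 ± 0.15) and the receptor gene Igf1r (-0.25 ± 0.21) were not called (adjusted p = 0.55 and 0.41).

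Of 24 tested TGF-beta and activin genes 11 rose (6 without the letter A arrays) and 3 fell (median 0.23). Tgfb3, a ligand gene active in tendon, read 837, 870.3 and 864 at E12.5 and 3059.5, 1947 and 1899 at E14.5 and rose by 1.39 ± 0.20 (adjusted p = 0.0015), while Tgfb2 was not called (0.21 ± 0.14). Tgfbr2, the type II receptor gene, read 1672, 2024 and 2201 at E12.5 and 5689.9, 5538 and 6061 at E14.5 (1.56 ± 0.14, a call lost with its second probe set). The repressor gene Tgif1 fell from 1668, 1182 and 1541 to 658, 775 and 574 (-1.13 ± 0.17), and the activin receptor gene Acvr2b fell by 1.54 ± 0.16, a call lost with the second probe set. None of Smad2, Smad3, Smad4 or Smad7 was called (adjusted p = 0.87, 0.57, 0.85 and 0.87). BMP and GDF genes were near the background, with 2 of 26 tested higher and 2 lower (1 and 1 without the letter A arrays, and lower 1 without E12.5 A, 4 with the array letter as a block and 6 after median centring). Gdf10 rose (1576, 2032 and 2324 at E12.5 and 6892, 4036 and 3486 at E14.5, 1.23 ± 0.25, and 0.79 without the letter A arrays) and the antagonist gene Chrdl1 fell (629.6, 708 and 740.5 at E12.5 and 269, 332 and 245 at E14.5, -1.30 ± 0.21). In FGF and ERK signalling 5 of 24 tested genes rose and 2 fell (3 and 1 without the letter A arrays). Among all tested genes 12.6% rose and 9.32% fell, so the falls of this list were near the background. The feedback inhibitor gene Spry1 rose by 1.09 ± 0.20, and the ligand gene Fgf7 by 1.75 ± 0.24, from 140.4, 248 and 198 to 494, 812 and 659.9, a call lost with its second probe set.

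Of 44 tested Wnt genes 13 rose and 4 fell (median 0.23); 2 were lower without E14.5 A, and 1 without E12.5 A or without the letter A arrays. Dkk1, an antagonist, read 107, 81.6 and 100.3 at E12.5 and 431, 316 and 338 at E14.5 and rose by 1.90 ± 0.20 (adjusted p = 2.8e-04), after a first interval of -0.79 ± 0.20 (difference between the intervals 2.69 ± 0.35, adjusted p = 0.01). Dkk3 and Dkk2, of the same family, rose by 2.09 ± 0.30 and 1.44 ± 0.20. The ligand gene Wnt2 read 73.4, 115 and 96.3 at E12.5 and 269.6, 364 and 339 at E14.5 (1.79 ± 0.23). Frzb, a secreted Wnt-binding protein gene of early cartilage and joints, fell from 2643, 1496 and 2031 to 838, 608 and 523 (-1.64 ± 0.24). In the retinoid pathway 4 of 16 tested genes rose and 4 fell. The synthesis gene Aldh1a2 read 751, 567 and 700.0 at E11.5 and 1864, 1522 and 1769 at E12.5 and 345, 625 and 547 at E14.5, so that it was highest in the E12.5 arrays (-1.80 ± 0.22, adjusted p = 6.3e-04; difference between the intervals -3.16 ± 0.38, adjusted p = 0.0075). The degradation gene Cyp26b1 (-1.05 ± 0.14) and the retinol-uptake receptor gene Stra6 (-1.01 ± 0.17) also fell, whereas the carrier genes Rbp4 (1.46 ± 0.19) and Crabp1 (0.93 ± 0.15) rose. Hedgehog genes were higher in 4 of 13 tested cases (1 without the letter A arrays, 2 after median centring or without E12.5 A or E14.5 A) and none was lower. Notch genes were higher in 1 of 15 tested cases and lower in 3 (1 without E12.5 C). Among all tested genes 12.6% were higher and 9.32% lower. The Notch genes included Dlk1, a Notch-related membrane protein gene expressed from the paternal allele, at 2294, 2429 and 2254 at E12.5 and 9178, 8520.0 and 10004 at E14.5 (1.99 ± 0.28), and the ligand gene Dll3, which fell by 1.46 ± 0.25.

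Chemokine and cytokine genes rose in 9 of 16 tested cases (median 1.04, 26 listed) and none fell. Only the stages where they were high took 3 of the 16 past the filter on low signals. Il33, a nuclear cytokine gene, was below the floor in all E12.5 arrays (19.3, 21.3 and 4.21) and read 163, 199.9 and 154 at E14.5 (2.92 ± 0.17, and 0.92 with the floor at the median signal). Cxcl12, a chemokine gene of mesenchyme, read 2213, 2266 and 2002 at E12.5 and 5108, 6559.8 and 7466 at E14.5 (1.55 ± 0.16, lost with the second probe set). Of 15 tested PDGF and VEGF genes 5 rose (3 without E14.5 A or E12.5 B, or after median centring) and 1 fell (0 without the letter A arrays or E12.5 C). The lymphatic growth factor gene Vegfd read 166, 181 and 225 at E12.5 and 529, 544 and 512 at E14.5 (1.48 ± 0.14) and the co-receptor gene Nrp1 read 1379, 1511 and 1751 at E12.5 and 3842, 3481 and 3302 at E14.5 (1.20 ± 0.14). Guidance genes were called higher in 10 of 39 tested cases, 4 without E12.5 C or without the letter A arrays, and lower in 3, 1 without E12.5 A. None of the 9 tested Eph receptor genes was called by limma. Among prostaglandin and nuclear receptor genes, 6 of 18 tested rose (3 without the letter A arrays) and 1 fell. Nr3c1, the glucocorticoid receptor gene, read 223, 332 and 355 at E12.5 and 1471, 1168 and 1557 at E14.5 and rose by 2.22 ± 0.19 (adjusted p = 1.0e-04), and the prostaglandin receptor gene Ptger4 by 1.37 ± 0.23.

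Limb patterning factors went down. Of 35 tested (40 listed) 17 fell and none rose, or 1 with the array letter as a block (median -0.67, against 9.32% lower among all tested genes). Lhx9, a LIM factor of the distal limb bud, read 3243, 2252 and 2396 at E12.5 and 731, 929.9 and 457 at E14.5 (-1.94 ± 0.28). Its relative Lhx2 read 1320.1, 1270.2 and 1234 at E12.5 and 534, 582 and 463 at E14.5 (-1.28 ± 0.17). Hand2, a factor of posterior limb identity, read 5361, 5275 and 6568 at E12.5 and 1789.5, 2860.4 and 2198 at E14.5 (-1.35 ± 0.19, adjusted p = 0.0013, lost with its second probe set). Zic5 and Zic2, zinc finger factor genes, went from 593, 298 and 381 to 41.7, 50.2 and 80.8 (-2.88 ± 0.32) and from 805, 611 and 670.2 to 98.4, 184 and 156 (-2.29 ± 0.23). Sall4, a zinc finger factor gene, had a change of -2.04 ± 0.28, or -0.90 with the floor at the median signal. Of 24 tested Hox genes 11 fell and none rose (median -0.69); 4 fell without the letter A arrays and 7 without E12.5 A or E14.5 A. Hoxc10 read 1042, 987 and 701 at E12.5 and 208, 285 and 371 at E14.5 (-1.68 ± 0.27). Hoxd13, the most 5′ gene of its cluster and a factor of the autopod, read 6099, 4689 and 5685 at E11.5 and 9207, 10259 and 10763 at E12.5 and 5554, 5216 and 5301 at E14.5, so that it was highest in the E12.5 arrays (-0.91 ± 0.14; difference between the intervals -1.79 ± 0.24, adjusted p = 0.011); its call was lost with the second probe set. Prrx1 (-0.22 ± 0.16) and Twist1 (0.09 ± 0.15), general limb mesenchyme factors, were not called (adjusted p = 0.35 and 0.71). The patterning count was 9 without the letter A arrays and 11 without E12.5 A.

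The pathway of the RNA-binding protein Lin28 and the microRNA let-7 acts as a timer of development in many animals. Of 8 tested genes of this list (12 listed) 7 were lower and none higher (median -1.31). Among the 8 tested, 2 passed the filter on low signals only through the stages where they were high. Lin28a and Lin28b themselves were below the median signal in every E12.5 and E14.5 array, so their own change cannot be read from this count. Trim71, an RNA-binding ubiquitin ligase gene targeted by let-7, read 435, 430.1 and 333 at E12.5 and 64.2, 57.3 and 82.8 at E14.5 and fell by 2.56 ± 0.18 (adjusted p = 3.7e-05). Hmga2, a chromatin protein gene and let-7 target, read 15118, 13894 and 15779 at E12.5 and 4796, 6464 and 4712 at E14.5 (-1.50 ± 0.17). Igf2bp1, an RNA-binding protein gene, went from 3498, 2789 and 2642 to 1284, 1376 and 1420.0 (-1.12 ± 0.17), and Mycn from 1672, 1223 and 1233 to 513, 525 and 407 (-1.51 ± 0.23, and -2.56 with its second probe set). Among imprinted growth genes the direction was the other way, with 7 of 16 tested higher (3 without the letter A arrays, 4 without E12.5 B) and none lower, including Dlk1 and Plagl1, which went from 185, 319 and 186 to 923, 1216 and 1289 (2.35 ± 0.46, lost with its second probe set).

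Genes of the dividing cell fell. Of 39 tested DNA replication genes 25 were lower (median -0.64), and of 48 tested mitosis and kinetochore genes 29 were lower (median -0.80); none of either list rose. Plk1, a mitotic kinase gene, read 1685, 1555 and 1730.0 at E12.5 and 678, 971 and 589 at E14.5 and fell by 1.18 ± 0.18 (adjusted p = 0.002). Cdc20, the activator of the anaphase-promoting complex, read 4004, 3268 and 3571 at E12.5 and 1768, 2014 and 1300.5 at E14.5 (-1.11 ± 0.19). Ccnb2, a B-type cyclin gene, read 3181, 3141 and 3301 at E12.5 and 1751, 2326 and 1604 at E14.5 (-0.78 ± 0.16, lost without the letter A arrays), and the spindle kinase gene Aurka read 1958, 1802 and 1716 at E12.5 and 765, 998 and 537 at E14.5 (-1.29 ± 0.21, lost with its second probe set). All 4 were lowest in E14.5 C, and in none did the stages overlap. Replication genes that fell included Gins1 (2553, 2098 and 2167 at E12.5 and 1035, 1317 and 877 at E14.5, -1.09 ± 0.17) and Rrm2, the ribonucleotide reductase subunit gene (5409, 4952 and 4983 at E12.5 and 3033, 2793 and 2184 at E14.5, -0.95 ± 0.15), and 7 of 9 tested Mcm family genes fell. By family, 13 of 20 centromere protein genes, 10 of 18 nucleoporin genes and 10 of 28 kinesin genes fell, and 1 kinesin gene rose. Without the letter A arrays 4 Mcm, 1 centromere protein, 2 nucleoporin and 4 kinesin genes fell; without E14.5 A 8 centromere protein and 6 nucleoporin genes fell, without E12.5 B 6 centromere protein genes, and without E12.5 A 4 nucleoporin genes. The kinesin gene that fell most was Kif26b, which is not on the mitosis list. It read 3539, 3246 and 3819 at E12.5 and 1577, 1369 and 1250.1 at E14.5 (-1.34 ± 0.15). The replication count was 8 without the letter A arrays and 15 without E12.5 A. The mitosis count was 7 without the letter A arrays, and 45 after median centring. Of 22 tested G1 regulators 5 rose, none of them without the letter A arrays, and 1, Cdk4, fell, or 2 with the array letter as a block (-0.51 ± 0.13, lost without the letter A arrays or any 1 of E12.5 A, E12.5 B, E14.5 A and E14.5 C). The cyclin-dependent kinase inhibitor gene Cdkn2c read 255, 256 and 291 at E12.5 and 915, 769 and 383 at E14.5 (1.28 ± 0.30, lost with no filter and without the letter A arrays).

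Promoter windows of 4 of these genes are shown because many genes of the mitosis list shared 2 stretches of letters. All 4 windows hold both stretches, so they do not stand for the whole list. Genes of late cell cycle phases often carry the cell cycle homology region, TTTGAA, and CCAAT boxes bound by nuclear factor Y. The windows, from RefSeq on GRCm38.p6, run from 250 bases before to 50 after the start, and capitals mark TTTGAA and CCAAT as read on the printed strand. Plk1 lies at chr7:122159185-122159484 on the plus strand. Cdc20 lies at chr4:118437294-118437593, Ccnb2 at chr9:70421505-70421804 and Aurka at chr2:172370521-172370820, all on the minus strand.
Plk1: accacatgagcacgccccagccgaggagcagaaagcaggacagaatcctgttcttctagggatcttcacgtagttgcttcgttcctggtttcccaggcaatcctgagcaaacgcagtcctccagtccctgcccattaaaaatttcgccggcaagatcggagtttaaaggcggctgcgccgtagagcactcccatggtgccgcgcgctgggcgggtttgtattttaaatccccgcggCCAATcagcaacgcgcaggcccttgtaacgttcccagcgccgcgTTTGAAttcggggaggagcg
Cdc20: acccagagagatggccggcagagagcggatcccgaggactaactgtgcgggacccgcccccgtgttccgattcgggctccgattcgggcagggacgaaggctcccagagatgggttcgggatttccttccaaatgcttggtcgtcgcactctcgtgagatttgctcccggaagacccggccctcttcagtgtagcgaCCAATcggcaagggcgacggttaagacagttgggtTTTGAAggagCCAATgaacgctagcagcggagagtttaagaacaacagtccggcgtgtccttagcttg
Ccnb2: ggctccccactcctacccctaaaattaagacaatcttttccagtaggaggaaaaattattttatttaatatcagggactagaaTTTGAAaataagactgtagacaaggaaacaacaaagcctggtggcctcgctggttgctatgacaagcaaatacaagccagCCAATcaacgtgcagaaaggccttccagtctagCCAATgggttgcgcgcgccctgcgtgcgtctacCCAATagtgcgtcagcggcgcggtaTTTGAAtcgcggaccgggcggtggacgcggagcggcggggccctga
Aurka: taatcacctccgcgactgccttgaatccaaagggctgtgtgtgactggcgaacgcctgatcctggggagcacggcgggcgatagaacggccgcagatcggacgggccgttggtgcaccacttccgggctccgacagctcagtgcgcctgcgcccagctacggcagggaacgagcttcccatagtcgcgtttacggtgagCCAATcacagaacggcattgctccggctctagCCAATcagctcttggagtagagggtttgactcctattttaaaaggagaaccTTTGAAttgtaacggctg
On both strands these windows held 1, 1, 2 and 1 matches to TTTGAA and 1, 2, 3 and 2 matches to CCAAT, in the order printed. Of the 36 tested mitosis list genes with 1 window, 69.4% held TTTGAA and 69.4% held CCAAT, and 22 (61.1%) held both. Both were present in 9.96% of the 703 genes that fell, 2.86% of the 873 that rose, 4.41% of those not called and 4.75% of all 7429 tested. TTTGAA, with or without CCAAT, was in 17.1% of the genes that fell, 9.74% of those that rose and 11.3% of those tested. It was in 18.5% of all 22862 genes with 1 window. These shares include the windows that held both. Of the 22 mitosis genes with both, 16 were called lower, 6 were not called and none was higher. In the whole mitosis list 29 of 48 tested genes were lower. That count includes genes whose windows were not scored for these letters, so the 2 counts cover unlike sets. Replication genes held CCAAT in 60.7% of 28 windows. Median GC content was 61.7% over the tested genes, 61.3% for those that fell and 59.7% for the mitosis list.

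Chromatin genes also fell, 14 of 33 tested (7 without the letter A arrays), with 1 higher (median -0.40). Ezh2, the catalytic subunit of Polycomb complex 2, read 6000.2, 7399 and 6699.9 at E12.5 and 2832, 4475 and 3454 at E14.5 (-0.92 ± 0.18). Chd7, a chromatin remodeller gene, went from 487, 475 and 453 to 156, 183 and 155 (-1.52 ± 0.18), and Hmgb3 fell by 0.98 ± 0.17. The 1 that rose was Lmna, which encodes lamin A and C of the nuclear lamina, at 425, 294 and 457 at E12.5 and 5162, 2435 and 2392 at E14.5 (3.01 ± 0.30, adjusted p = 2.1e-04). In splicing and mRNA processing 9 of 46 tested genes fell and 1 rose (median -0.31); the falls were 21 after median centring, 15 with the array letter as a block, 1 without the letter A arrays and 3 without E12.5 A. Mitochondrial ribosomal protein genes (10 of 76 lower, median -0.31) and proteasome subunit genes (8 of 43 lower, median -0.35) stood beside a background of 9.32%; without E14.5 A 2 of each were called, neither had a call without E12.5 A or without the letter A arrays, and after median centring 32 and 24 were called. Ribosome biogenesis (2 of 42 lower, 1 without the letter A arrays or E11.5 A, 5 with the array letter as a block, 9 after median centring), oxidative phosphorylation (1 of 45 lower, 0 without E14.5 A, E11.5 A or the letter A arrays, 2 with the array letter as a block, 11 after median centring), and sterol and fatty acid synthesis (0 of 24 by limma, 1 higher with the array letter as a block, 3 lower after median centring) showed few calls. Of 46 cytosolic ribosomal protein genes 1 rose, Rpl39l, a paralog of Rpl39, at 116, 171 and 163 at E12.5 and 1103, 1037 and 615 at E14.5 (2.59 ± 0.28). Of 24 glycolysis genes 2 rose and 2 fell (1 and 1 without the letter A arrays or E12.5 A, 1 higher without E14.5 A, 5 lower after median centring); Ldhb, a lactate dehydrogenase subunit gene, went from 6690.2, 5061 and 5873 to 2656, 2679 and 2144 (-1.23 ± 0.16).

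Immediate early and heat shock genes had a high median change (1.22), but calls near the share of all tested genes. Called higher were 4 of 29 tested and lower none, against 12.6% higher and 9.32% lower among all tested genes. With the array letter as a block 13 were higher and 1 lower. Immediate early genes respond fast to many stimuli of the cell. Averaged over the list, log2 signals were 10.19, 9.82 and 9.08 at E12.5 and 11.97, 10.63 and 9.996 at E14.5, so E12.5 A lay above E14.5 C. Their part in the other changes was not tested. Klf4, a zinc finger factor gene of this list, read 1577, 2986 and 1513 at E12.5 and 10887, 7522 and 5813 at E14.5 and rose by 2.02 ± 0.32 (adjusted p = 0.0025). Among hypoxia and antioxidant genes 7 of 26 tested rose and 1 fell, with the metallothionein gene Mt2 at 79.2, 116 and 73.4 at E12.5 and 479, 396 and 255 at E14.5 (2.06 ± 0.25) and Txnip, a thioredoxin inhibitor gene, at 1.28 ± 0.22. Vegfa and Hif1a were not called (adjusted p = 0.11 and 0.42). Of 12 tested MHC class I and interferon genes 6 rose (3 without the letter A arrays) and none fell, with Bst2 at 93.3, 98.1 and 60.4 at E12.5 and 245, 284 and 273 at E14.5 (1.70 ± 0.28). Of 10 tested complement genes and serpins 6 rose and none fell. Clu, the extracellular chaperone clusterin, read 142, 160.0 and 126 at E12.5 and 989, 935 and 970.1 at E14.5 (2.76 ± 0.14, adjusted p = 7.0e-06), and Serping1, the C1 inhibitor gene, read 358, 346 and 333 at E12.5 and 1037, 1142 and 1333 at E14.5 (1.75 ± 0.13).

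Surface and membrane genes rose in several families. Of 28 tested integrin and focal adhesion genes 9 rose and none fell (5 without E14.5 A or after median centring, 4 without the letter A arrays). Cav1, the caveolin 1 gene, read 101, 131 and 162 at E12.5 and 1517, 1286 and 779 at E14.5 and rose by 3.15 ± 0.25 (adjusted p = 6.9e-05); in the first interval its change was -0.14 ± 0.25, and the difference between the intervals was 3.29 ± 0.44 (adjusted p = 0.011). Itgb1, the shared β1 integrin subunit gene, read 1110.2, 1372 and 1111 at E12.5 and 2372, 2420.1 and 2523 at E14.5 (1.03 ± 0.13, and 0.45 with the mean of its probe sets). Cd44, the hyaluronan receptor gene, read 133, 125 and 171 at E12.5 and 3468, 2758 and 2660.0 at E14.5 (4.38 ± 0.28, and 2.79 with the mean of its probe sets). Of 8 tested S100 calcium-binding protein genes 6 rose and none fell (median 1.95), with S100a10 at 1617, 1520.4 and 1381 at E12.5 and 8767, 7131 and 7816 at E14.5 (2.39 ± 0.13) and S100a6 at 2.69 ± 0.22. Of 7 annexin genes, which encode calcium-dependent membrane-binding proteins, 6 rose and none fell (median 1.37), with Anxa5 at 3234, 2689 and 2851 at E12.5 and 9248, 6615 and 6958 at E14.5 (1.37 ± 0.20). Potassium channel genes rose in 11 of 27 tested cases and fell in 2, or in none without the letter A arrays. Of the 27, 4 passed the filter on low signals only through the stages where they were high. Kcnk6, a background channel gene, read 215, 267 and 201 at E12.5 and 1525, 907 and 741 at E14.5 (2.16 ± 0.26). Contractile cytoskeleton genes were called in 6 of 27 cases, all higher (median 0.09; 3 without the letter A arrays or E12.5 B).

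Markers of other cell types were measured beside these groups. The sums of signals are over the measured members of each list, lowest to highest array. The 24 cartilage markers summed to 39080 to 45640 at E12.5 and 19140 to 127000 at E14.5. Called higher were 2 of the 20 tested and lower none, and 1 of each with the array letter as a block; without E14.5 A 1 was higher and 5 were lower, and without the letter A arrays 0 and 4. Cnmd, the chondromodulin gene, read 1434, 1335 and 1309.7 at E12.5 and 12931, 2808 and 1284 at E14.5, high in E14.5 A and just below the E12.5 range in E14.5 C, and was not called (adjusted p = 0.18); without E14.5 C it was called higher (2.15). The 34 skeletal muscle markers overlapped (11490 to 19300 and 15190 to 18810), with Myf6 and Chrnd at the floor in all 6 arrays, and 6 of 30 tested rose (3 without E12.5 B, without E14.5 A or without the letter A arrays) and 1 fell. Myog, the myogenin gene, read 1245, 837 and 721 at E12.5 and 2155, 1689 and 1619.7 at E14.5 and was called higher (0.99 ± 0.27, adjusted p = 0.029), a call lost with no filter on low signals, with its second probe set and without any 1 of E12.5 B, E12.5 C and the 3 E14.5 arrays, when its change was 0.82 to 1.07. The 11 osteogenic markers summed to 1605 to 1722 at E12.5 and 3379 to 5630 at E14.5, and 4 of 6 tested rose (2 without the letter A arrays); Alpl, the alkaline phosphatase gene, read 52.7, 54.4 and 36.6 at E12.5 and 371, 159.8 and 161 at E14.5 (2.17 ± 0.40, and 1.23 with the floor at the median signal).

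The 21 fibroblast markers summed to 36080 to 43390 at E12.5 and 68690 to 87630 at E14.5, with 10 of 18 tested higher and none lower. Only the stages where they were high took 4 of the 18 past the filter on low signals. This list shares members with the matrix lists. Cd34, a surface marker of connective tissue and vascular cells, read 85.2, 129.7 and 118 at E12.5 and 1482, 1426 and 1409 at E14.5 (3.72 ± 0.23, adjusted p = 1.9e-05), and Clec3b, the tetranectin gene, read 9.70, 36.6 and 59.6 at E12.5 and 392, 658 and 883 at E14.5 (4.06 ± 0.36). The 21 endothelial and pericyte markers summed to 4524 to 4949 and 6833 to 9040, with 5 of 12 tested higher and 1 lower. Tie1 was at the floor and Pecam1 and Lyve1 below the median signal in all 6 arrays, whereas Abcc9, a potassium channel regulator gene of pericytes and other mesenchyme, read 62.0, 105 and 92.8 at E12.5 and 497, 829.7 and 838 at E14.5 (3.05 ± 0.31) and Tek read 88.6, 99.0 and 103 at E12.5 and 320.0, 466 and 735 at E14.5 (2.31 ± 0.26). Blood markers overlapped (1708 to 3312 and 1753 to 2860), with Ptprc, Alas2 and Itgam below the median signal in all 6 arrays. Of 12 tested blood markers 2 were higher and 1 lower, against 12.6% and 9.32% of all tested genes. The counts were 1 and 0 without the letter A arrays or E12.5 A, and 4 and 2 with the array letter as a block. Changes of the tested blood markers ran from -2.33 to 2.08. F13a1, a coagulation factor subunit gene of macrophages, read 37.2, 43.4 and 42.5 at E12.5 and 234, 176 and 127 at E14.5 (2.08 ± 0.31, and 0.94 with the floor at the median signal).

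Neural and Schwann markers summed to 3894 to 4121 and 4963 to 6146, with 5 of 12 tested higher (3 without E12.5 C) and 3 lower (1 without the letter A arrays). Ngfr, the neurotrophin receptor gene of Schwann and other neural crest cells, read 559, 686 and 614 at E12.5 and 1132, 1113 and 1048 at E14.5 (0.83 ± 0.14). The neuronal tubulin gene Tubb3 read 193, 134 and 96.4 at E12.5 and 1.48, 41.0 and 24.8 at E14.5 (-2.25 ± 0.43, a call lost with the floor at the median signal and without the letter A arrays). Epithelial markers summed to 1949 to 2168 and 2260 to 3174, with 3 of 10 tested higher and none lower. Perp, a desmosome gene of epithelia, read 101, 119 and 106 at E12.5 and 462, 398 and 266 at E14.5 (1.75 ± 0.23). Sfn was at the floor and Krt14, Trp63 and Esrp1 were below the median signal in all 6 arrays. The part of these cell types in the changes above was not tested.

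**Figure D4:**
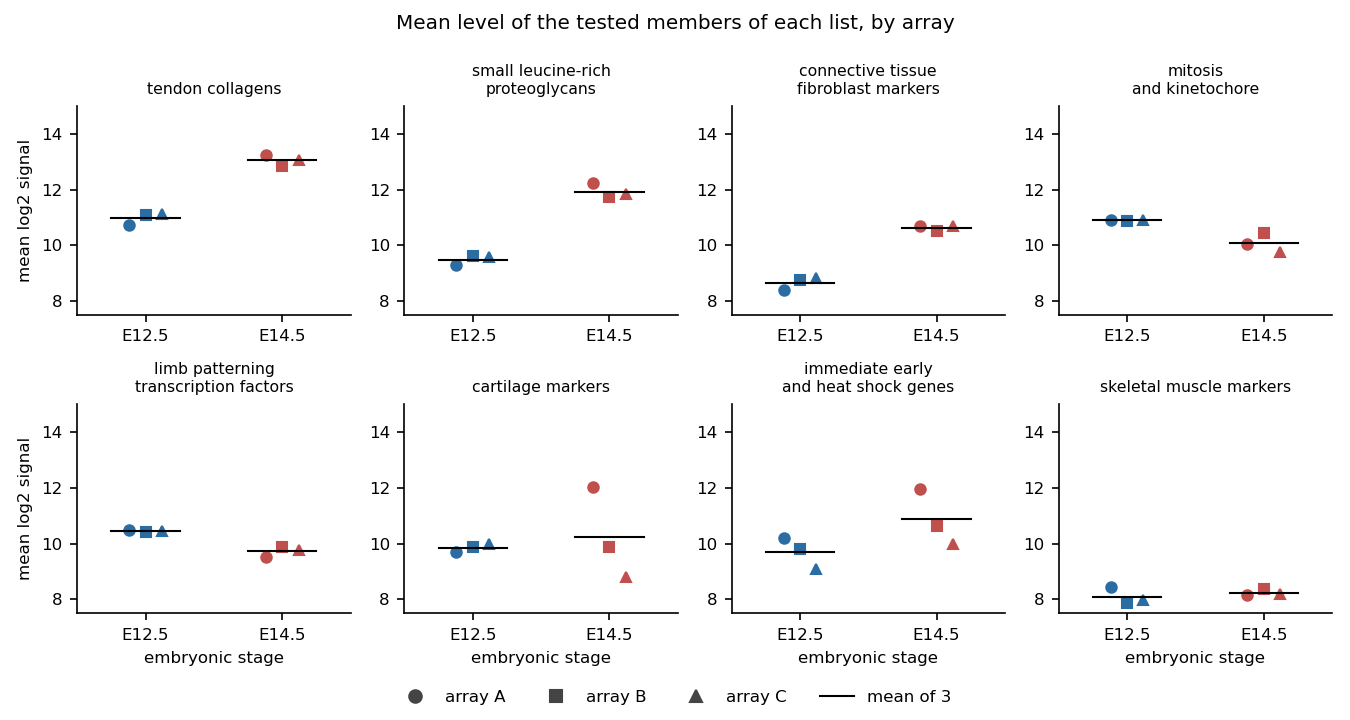
Mean log2 signal of the tested members of 8 gene lists in each array, with 1 point per array, circles for A, squares for B and triangles for C. The cartilage list spreads from 8.79 to 12.04 over the E14.5 arrays against 9.70 to 9.997 at E12.5, while the tendon collagen list lies between 12.86 and 13.23 at E14.5 and between 10.72 and 11.11 at E12.5.

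The second interval was finally set against the first, E12.5 minus E11.5, in the same fit; the intervals last 2 days and 1 day and share the E12.5 arrays. The change differed between them for 89 genes (0.769% of those tested), 73 with a more positive and 16 with a more negative second change. Dpt had the largest positive difference, 5.44 ± 0.49 (adjusted p = 0.0017), after a first change of 0.45 ± 0.28. Ccn3 (5.32 ± 0.64, adjusted p = 0.0069), Ecrg4 (4.98 ± 0.81, adjusted p = 0.03) and Abca8a (4.40 ± 0.56, adjusted p = 0.0093) followed. Ecrg4, a secreted peptide precursor gene, read 8.68, 55.3 and 55.8 at E12.5 and 3855, 1432 and 1379.9 at E14.5, and Abca8a, a lipid transporter gene, read 26.8, 19.4 and 49.8 at E12.5 and 593, 767 and 808 at E14.5 (second change 4.52 ± 0.32, and 2.98 with the floor at the median signal). These genes were near the floor at both earlier stages. Col1a1 was also among the 89 (1.97 ± 0.31, adjusted p = 0.025), whereas Mkx (0.17 ± 0.34, adjusted p = 0.9), Tnmd (4.88 ± 0.95, adjusted p = 0.058) and Scx (-0.42 ± 0.38, adjusted p = 0.74) were not. A positive difference also arose from a first fall: Shh, the signal of the posterior limb margin, read 930.5, 1240.4 and 885 at E11.5 and 68.5, 14.4 and 34.5 at E12.5 and 27.3, 19.9 and 31.8 at E14.5 (difference 4.26 ± 0.60, adjusted p = 0.014), with no called change in the second interval (adjusted p = 0.35). Cbln1, a secreted synaptic organiser gene, had a negative difference of -2.37 ± 0.42 (adjusted p = 0.043) and fell from 578, 472 and 593 to 88.1, 116 and 124 (-2.33 ± 0.24). The count was sensitive to the floor and to single arrays: 220 genes with the floor at the median signal, 19 with no floor, 28 without the letter A arrays, 30, 33 and 39 without E12.5 A, B or C, and 57 and 54 without E14.5 B or C.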

How the data were processed

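RNA of sorted cells from 9 samples (3 stages, arrays A to C of each) was measured on 1-colour expression arrays. The authors deposited linear MAS5 signal intensity per probe set, which the submitters' processing notes give as made in Affymetrix Expression Console 1.1. The values ran from 0.0409 to 45906.5, and each array had a mean of 500 after trimming 2% of values at each end. MAS5 subtracts mismatch signal, so low signals are noisy. Precision is limited by the number of arrays.

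Of 45101 probe sets, 64 were controls, 34945 bore 1 gene symbol in the platform annotation, 932 bore several and 9160 were unnamed here. Each of 18193 genes was represented by its probe set of highest mean log2 signal, with probe sets marked _x_at used only where a gene had no other. Signals below the 25th percentile (22.7) were raised to it before log2 was taken, and 11575 genes above the median signal (90.6) in at least 3 of the 9 arrays were tested. Genes above that level only at E14.5, or only at the earlier stages, were tested because of the side where they were high. Such genes included 4 of 24 matricellular, 3 of 16 chemokine, 4 of 18 fibroblast, 3 of 12 blood and 3 of 12 neural members. They also included 4 of 27 potassium channel, 3 of 35 limb patterning and 2 of 10 epithelial members. The counts and medians of the lists and families include them. One mean per stage was fitted to all 9 arrays with limma 3.58.1 (R 4.3.3), and p-values were adjusted by Benjamini-Hochberg over the tested genes. The procedure was tested on simulated data with known changes.

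Same-letter arrays of E12.5 and E14.5 deviated together from their stage means (r = 0.31, 0.12 and 0.29 for A, B and C across genes, against -0.39 to 0.18 for different letters). The labels leave the letters unexplained, so the pairing is a hint from the data; a fit with the letter as a block was an alternative. The other alternatives changed the floor, the filter, the normalization, the probe set, the prior, the array weights, a covariate for the 3′ to 5′ signal ratio, or the arrays used.

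The 52 gene lists, with 1405 distinct genes of which 1168 were tested, and the symbol families were chosen with earlier results of these data known and are described without set tests. Named genes were the largest rises and falls, up to 4 called members in each direction from each list or family, and the largest differences between the intervals. Scx, Mkx, Egr1, Tnmd, Col1a1, Col1a2, Col3a1, Sox9, Myog, Gapdh and Actb were named whether called or not. The values of Gapdh are left out of the text. Outside this rule and chosen after their values were seen were Acan, Adamts5, Calr, Cdc20, Cnmd, Col12a1, Col2a1, Col5a1, Col5a2, Col6a2, Col6a3, Comp, Dkk2, Dsel, Fmod, Hand2, Hif1a, Hoxd13, Hsp90b1, Hspa5, Igf1r, Igf2, Igf2bp1, Kera, Lhx2, Ltbp3, Lum, Pappa2, Pcolce, Postn, Prrx1, Rrm2, Serpinh1, Shh, Smad2, Smad3, Smad4, Smad7, Tgfb2, Tgfb3, Thbs4, Timp2, Twist1 and Vegfa, and the low markers of other cell types. Promoter windows came from RefSeq on GRCm38.p6, matched by gene symbol.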

Additional observations from a re-analysis of the deposited data

How the results depend on the processing

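Of the 131 printed genes called in the comparison of E14.5 with E12.5, 114 were called under every alternative and none changed sign under any. Of the printed genes tested and not called, 14 changed sign under at least 1 alternative; Acan was -0.11 without the letter A arrays and -0.04 without E14.5 A, and Col2a1 was 0.24 without E14.5 C. The count of genes called higher (1463) was 773 with the second probe set of each gene, 785 without the letter A arrays, and 1010 to 1502 with 1 array left out. The count called lower (1079) was 2169 after median centring, 545 with the second probe set, 299 without the letter A arrays, and 554 to 1097 with 1 array left out. The count that changed differently in the 2 intervals (89) was 220 with the floor at the median signal, 19 with no floor, 55 with no filter, 43 with the mean of probe sets, 28 with the second probe set, 59 with a trended and robust prior, 178 with array weights, 28 without the letter A arrays, and 30 to 73 with 1 array left out. With the array letter as a replicate block the 3 counts were 1717, 1374 and 99. The block changed no call of a printed gene other than that of Sox9. The causes of these differences were not tested. Genes near the floor have understated changes, and the 3 arrays a stage limit what could be called.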
